A study of Mus musculus with 4 samples.

Results

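The mesothelial cells of the knockout library were 62 cells with transcripts of Upk3b and Lrrn4. They were taken from a droplet single-cell RNA-seq library (10x Genomics) of mouse embryonic pancreas at embryonic day 15.5. A cell was counted as mesothelial when it had at least 500 detected genes, at most 10% mitochondrial transcripts and at least 3 UMIs of Upk3b and Lrrn4 together. A UMI is a molecular tag that counts 1 captured RNA molecule. By this rule 62 of the 561 knockout cells that passed the gene and mitochondrial filters were mesothelial (11.1%, exact binomial interval 8.58 to 13.9% at 95%, counting error only), out of 617 barcodes in the knockout table and 1558 in the series. The knockout embryos carried PdxCre, a floxed Ogt gene (OGTflox/flox) and a CAG GFP transgene, and their cells were sorted on endogenous GFP. The control embryos were OGTflox/flox with no Cre named in the labels, which give their genotype as WT, and their cells were sorted on a signal that the design text calls E-cadherin GFP. PdxCre acts in cells with an active Pdx1 promoter, that is in the pancreatic epithelium, and Ogt encodes the enzyme that puts O-GlcNAc on proteins. Both groups are labelled as pancreatic epithelial cells. The 2 samples of each genotype were repeat sequencing runs of 1 library, the number of embryos behind a library is not given in the sources used here, and nothing could be tested across samples.

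Mesothelium is the single layer of flat cells that covers the organs and walls of the body cavities. It is a mesodermal epithelium, with keratins and apical microvilli on one face and a basement membrane on the other, and in the embryo it releases retinoic acid and growth factors towards the tissue below. Mesothelial cells of fetal mouse organs can also leave the layer and become mesenchymal cells. Upk3b encodes a uroplakin of the apical membrane and Lrrn4 a leucine-rich repeat membrane protein, and both are standard mesothelial markers in the mouse. Wt1 (a zinc finger transcription factor), Aldh1a2 (an enzyme that makes retinoic acid) and Igfbp5 (a secreted binding protein of insulin-like growth factors) are further markers that played no part in choosing the cells.

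The stretches of DNA before the start sites of 4 of these genes are shown because the genes that chose the cells and the markers that were not used were high in the same cells. Each is the 250 bases before a RefSeq start site (build GRCm38.p6), read 5′ to 3′ on the strand of the gene. Capitals mark GGAATG, the core bound by TEAD factors, or its reverse complement, and GCGTGGG, a core bound by WT1.
Upk3b, chr5:136038246-136038495, plus strand: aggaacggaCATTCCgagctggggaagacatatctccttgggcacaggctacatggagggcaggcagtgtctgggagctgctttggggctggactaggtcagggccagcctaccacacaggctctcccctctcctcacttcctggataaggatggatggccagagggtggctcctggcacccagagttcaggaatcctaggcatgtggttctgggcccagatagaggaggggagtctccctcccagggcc
Lrrn4, chr2:132880863-132881112, minus strand: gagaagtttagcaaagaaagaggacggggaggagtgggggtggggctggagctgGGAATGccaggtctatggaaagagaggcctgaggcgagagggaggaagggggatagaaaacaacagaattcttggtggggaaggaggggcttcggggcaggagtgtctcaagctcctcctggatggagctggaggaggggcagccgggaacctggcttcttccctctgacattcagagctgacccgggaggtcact
Igfbp5, chr1:72874866-72875115, minus strand: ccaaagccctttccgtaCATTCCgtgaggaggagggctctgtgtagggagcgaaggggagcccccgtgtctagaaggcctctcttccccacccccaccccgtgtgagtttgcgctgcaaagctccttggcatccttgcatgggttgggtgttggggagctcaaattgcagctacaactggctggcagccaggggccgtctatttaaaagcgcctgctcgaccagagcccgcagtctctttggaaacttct
Aldh1a2, chr9:71215539-71215788, plus strand: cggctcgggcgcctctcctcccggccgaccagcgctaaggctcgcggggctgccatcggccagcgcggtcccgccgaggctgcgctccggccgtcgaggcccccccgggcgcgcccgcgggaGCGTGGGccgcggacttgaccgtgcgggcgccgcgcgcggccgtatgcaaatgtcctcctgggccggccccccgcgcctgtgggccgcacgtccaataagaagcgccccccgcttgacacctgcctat
Of 21 mesothelial marker genes, 14 had 15 promoters in the RefSeq table, which cover 250 bases before and 50 after each start. GGAATG on either strand stood in 4 of these 15 (Upk3b, Lrrn4, Igfbp5 and 1 promoter of Gpm6a), against 14.7% of all 32851 promoters of that length. GCGTGGG stood in 1 of 15 (Aldh1a2), against 5.04% of all. The GC box GGGCGG stood in 4 and TATAAA in 3 of the 15, against 35.7% and 13.6% of all. Each sequence shown held 1 match to these motifs, so no matches overlapped there.

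The mesothelial cells were chosen by their Upk3b and Lrrn4 UMIs, so the levels of these genes are a description. Upk3b had 549 UMIs in the 62 mesothelial cells, 473 CPM (the UMIs of a gene scaled to a common total of UMIs summed over the cells, on the usual CPM scale), against 13.7 CPM in the 499 other kept knockout cells. In single mesothelial cells it lay between 29.1 and 1917 CPM with a median of 419. Lrrn4 had 158 CPM in mesothelial cells and 2.00 CPM in the others. Among kept knockout cells 376 had no UMI of either gene, 97 had 1 and 26 had 2, all outside the rule, while just inside it 9 cells had 3 and 3 had 4. No gap separated the cells at the threshold, as the plot of marker UMIs per cell shows.

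**Figure D1:**
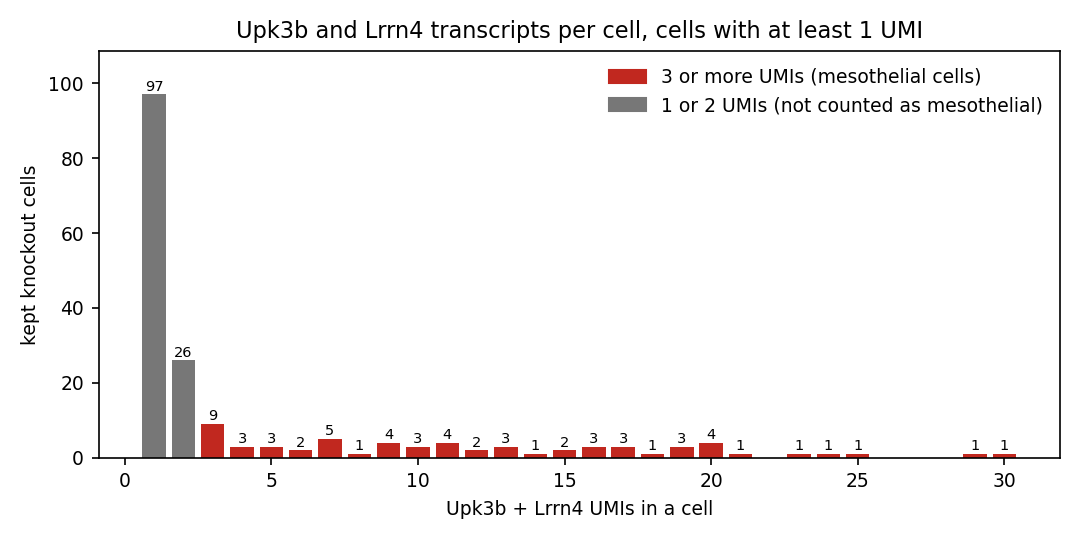
Kept knockout cells by their summed Upk3b and Lrrn4 UMIs, from 1 UMI upward (376 cells at 0 are not drawn). Red bars are the 62 mesothelial cells, with 3 UMIs or more, and grey bars the 97 cells with 1 and the 26 with 2.

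The markers that were not used followed the number of Upk3b and Lrrn4 UMIs. Wt1 stood at 17.9 CPM in cells with 1 UMI, 66.4 in cells with 2, 133 in cells with 3 to 4, 322 in cells with 5 to 9 and 363 in cells with 10 or more. Igfbp5 stood at 52.3, 94.6, 351, 592 and 784 CPM over the same bins. Epcam, an adhesion molecule of pancreatic epithelium, ran the other way above 2 UMIs, with 507, 558, 382, 179 and 119 CPM. The 12 cells with 3 to 4 UMIs were therefore mixed, and the 50 cells above them carried most of the mesothelial transcripts. The bins were of UMIs not scaled to depth. From the lowest bin to the highest the median depth was 20515, 19168, 12713, 13754 and 20391 UMIs per cell. The part of depth in these levels was not tested. In a clustering of the kept knockout cells without Upk3b and Lrrn4, 55 of the 62 mesothelial cells (88.7%) fell in 1 cluster of 65 cells. All 35 cells with 10 or more UMIs, 13 of 15 with 5 to 9 and 7 of 12 with 3 to 4 lay in it. The other 10 cells of that cluster did not reach 3 UMIs, and 1 of them had none. Clustering at a coarser resolution of 0.5 or a finer one of 2 left these counts as they were.

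**Figure D2:**
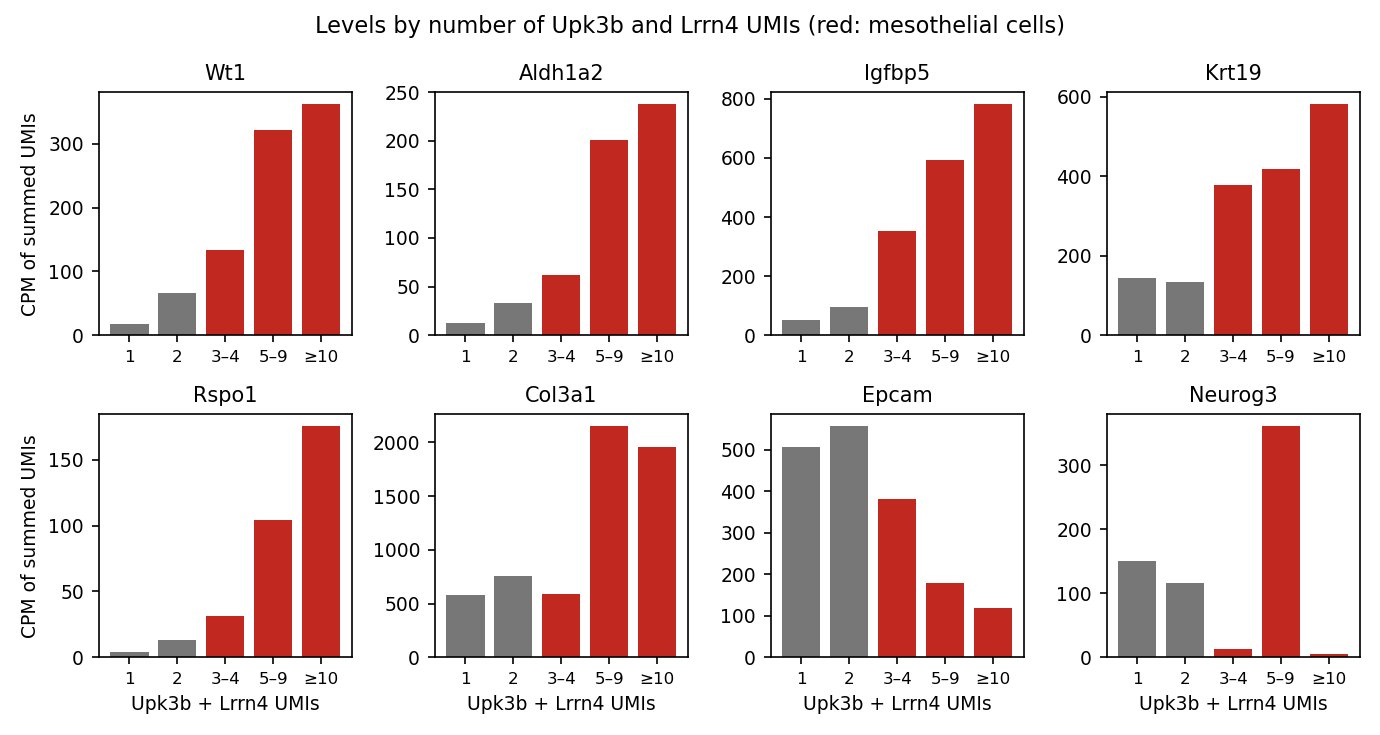
Summed levels (CPM) of 8 genes in cells with 1, 2, 3 to 4, 5 to 9 and 10 or more UMIs of Upk3b and Lrrn4, with red bars for mesothelial cells. Wt1 goes up over the bins to 363 CPM and Epcam stands at 119 CPM in the last bin, while the tall Neurog3 bar at 5 to 9 UMIs comes mostly from 1 cell.

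Some mesothelial cells also met the rule of another class. The collagen rule (Col1a1, Col1a2 and Col3a1 at 0.3% of UMIs or more) was met by 43 of the 62, the epithelial rule (Epcam and Cdh1 at 5 UMIs or more) by 13 and the leukocyte rule (Ptprc, Tyrobp and Fcer1g at 5 UMIs or more) by 6. Scrublet marked 7 of the 561 kept cells as doublets (1.25%), and none of these was mesothelial. The remaining cells gave 122 of collagen mesenchyme, 178 of epithelium and 67 leukocytes for comparison, with 97 that met several rules and 35 that met none.

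The knockout library held 11064540 UMIs and the control library 11973979, with medians of 15367 and 10756 per barcode. No barcode was shared by the tables. In the control library 0 of 925 kept cells met the rule, and a single cell had 2 UMIs of the choosing genes. Putting 3 cells in place of 0 gives an approximate upper bound of 0.324% for the control share. Because the sort differed with genotype, genotype and sort cannot be told apart in the difference between the libraries. Ogt measured 56.7 CPM (52.3 to 61.4, exact Poisson interval at 95%) in all kept knockout cells and 61.7 CPM (57.3 to 66.3) in all kept control cells. Which exons Cre removes is not stated in the labels, and reads near the 3′ end need not cover them, so these counts do not check the deletion. Within the knockout library the mesothelial cells summed to 1160154 UMIs, with a median of 17427.5 per cell (5763 to 68621). The median was 11016.5 in collagen mesenchyme, 19500.5 in epithelium and 13860 in leukocytes. Intervals below are exact at 95% and cover counting error only, since PCR and cell sampling within 1 library are not replicated.

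Ogt itself was measured in mesothelial cells at 81.9 CPM (66.3 to 100.1, 95 UMIs in 46 cells). It stood at 115 CPM in collagen mesenchyme, a ratio of 0.712 (0.546 to 0.924), and at 35.6 CPM in epithelium, a ratio of 2.3 (1.75 to 3.01). Mesothelial cells thus lay between mesenchyme and epithelium. With every cell thinned to 5000 UMIs, 35.5% of mesothelial cells had an Ogt UMI, against 46.7% of collagen mesenchyme, 18.0% of epithelium and 15.2% of leukocytes. Mgea5, which encodes the enzyme that removes O-GlcNAc, had 38.8 CPM in mesothelial cells, 26.4 in collagen mesenchyme and 19.9 in epithelium. Its ratio over mesenchyme was 1.47 (0.927 to 2.35) and over epithelium 1.95 (1.32 to 2.85). Of 8 genes of the O-GlcNAc pathway, 7 had enough UMIs to be compared, and none but Ogt over epithelium lay past 2-fold.

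Against all other kept knockout cells, the genes with the highest ratios in mesothelial cells after Upk3b and Lrrn4 were Cav1, Igfbp5, Rspo1 and Podxl. Among 10990 genes with at least 50 UMIs over both cell sets, 672 (6.11%) were at least 2-fold higher and 1169 (10.6%) at least 2-fold lower in mesothelial cells. The median log2 ratio over these genes was -0.01. A gene that reaches 50 UMIs through its high set alone has to differ, so counts of list members are descriptions beside these shares. Of the 5 genes listed as mesothelial markers, Wt1, Aldh1a2 and Igfbp5 were not counted by the rule. The list was chosen with earlier results of these data known, so their levels too are a description. Wt1 had 310.3 CPM (279 to 344, 58 of 62 cells) in mesothelial cells and 27.9 CPM in the other cells, a ratio of 11.1 (9.46 to 13.1). Aldh1a2 had 197 CPM (172 to 224, 54 cells) and 12.4 CPM, a ratio of 15.8 (12.6 to 19.9). Igfbp5 had 662 CPM (616 to 710.5, 61 cells) and 55.5 CPM, a ratio of 11.9 (10.7 to 13.3). All 3 ratios were thus over 10, though the interval for Wt1 reached down to 9.46. At 5000 UMIs per cell 87.1% of mesothelial cells had a Wt1 UMI, against 27.9% of collagen mesenchyme, 6.18% of epithelium and 6.06% of leukocytes, a class that should lack it.

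Of 16 further mesothelial markers 12 could be compared with the other cells, and 8 were higher and 2 lower (Krt18 and C3). Over collagen mesenchyme 10 could be compared, and 7 were higher and 1 lower. The lower one was Nkain4, an ATPase-interacting membrane protein, with 57.8 CPM in mesothelial cells and 154 in mesenchyme, a ratio of 0.375 (0.281 to 0.496), and 44.2 CPM in all other cells. Upk1b, a tetraspanin partner of uroplakins, had 102 CPM in mesothelial cells and 4.95 in the others, a ratio of 20.5 (14.5 to 29.5). Gpm6a, a neural-type membrane glycoprotein, had 86.2 and 4.85 CPM, and Bnc1, a zinc finger protein of keratinocytes and mesothelium, 42.2 and 2.42 CPM. Muc16, the large cell-surface mucin known as CA125, had 32 UMIs in mesothelial cells and 10 in all others, a ratio of 26.2 (12.6 to 59.7). These low-level markers were not seen in every cell, with UMIs in 20 of 62 for Muc16 and 34 of 62 for Bnc1. Tbx18, a T-box factor of early mesothelium, had 9 UMIs in 7 mesothelial cells and 0 in the 499 others. With 3 counts put in place of 0 over that group this was 24.5-fold higher, which leaves out the counting error of the 9 UMIs. Msln (mesothelin), a marker of adult mesothelium, had only 7 UMIs in 5 cells (6.03 CPM, 2.43 to 12.4) against 0.843 CPM, and the complement gene C3 had 4.31 CPM against 8.64. Krt18, the other marker below 0.5-fold, had 475 CPM against 1074 in the others and 1602 in epithelium.

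The 12 leading genes over the other cells, ranked on the log2 ratio with 10 CPM added, were Upk3b, Lrrn4, Cav1, Igfbp5, Rspo1, Podxl, Igfbp2, Aldh1a2, Wt1, Tmem108, Upk1b and Tm4sf5. Cav1, the coat protein of caveolae, had 372 CPM (338 to 409, 58 cells) in mesothelial cells and 19.5 CPM in the others, a ratio of 19.1 (16.0 to 22.8). Podxl, a sialylated anti-adhesive protein of apical membranes, had 180.1 and 10.1 CPM, a ratio of 17.8 (13.9 to 22.9). Tmem108, a transmembrane protein, and Tm4sf5, a tetraspanin-like protein, had 169.8 and 108 CPM in mesothelial cells and 11.8 and 5.90 CPM in the others. In collagen mesenchyme Cav1 had 33.0 CPM, Podxl 10.995, Tmem108 28.6 and Tm4sf5 5.86. The 8 leading genes in the other direction were Cd74, Lyz2, Coro1a, Cpa3, S100a8, Stfa1, Tyrobp and Alox5ap, all genes of blood cells. Lyz2, a lysozyme of myeloid cells, had 147 CPM in mesothelial cells and 958 CPM in the others, but 153 CPM in epithelium. All 8 leukocyte markers were lower in mesothelial cells than in the other cells, and the 6 that could be compared lay within 2-fold of collagen mesenchyme. Summed over that list, mesothelial cells held a median of 364 CPM per cell (148 to 923), epithelium 379 and collagen mesenchyme 392, against 11418 in leukocytes.

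**Figure D3:**
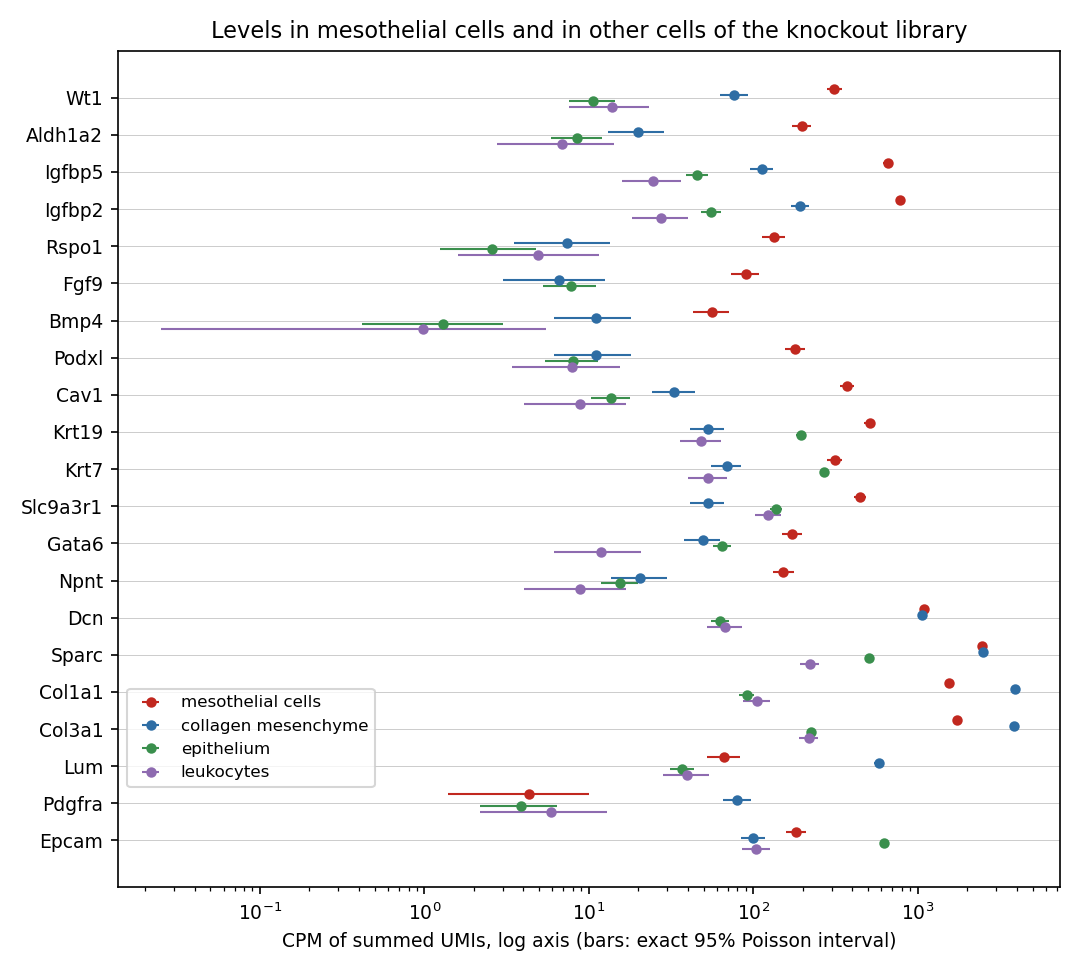
Levels (CPM of summed UMIs, log axis) of 21 genes in mesothelial cells, collagen mesenchyme, epithelium and leukocytes of the knockout library, with exact 95% Poisson intervals. A class with no UMI of a gene has no point. Wt1 to Npnt stand highest in mesothelial cells (Krt7 with epithelium close behind at 269 CPM), Dcn and Sparc are level with collagen mesenchyme, and Lum and Pdgfra are far below it.

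Collagen mesenchyme was the class nearest in germ layer. Its cells were chosen by collagen genes and without those that met the epithelial rule, while mesothelial cells that met either rule were kept. Differences in epithelial and fibroblast genes can therefore be partly set by the rules. Of 6239 genes with at least 50 UMIs over both sets, 262 (4.2%) were at least 2-fold higher and 374 (5.99%) at least 2-fold lower in mesothelial cells, with a median log2 ratio of 0.00. After Upk3b and Lrrn4 the leading genes were Sbspon, Podxl, Cryab, Cav1, Krt19, Rspo1, Prph, Tm4sf5, Slc9a3r1 and Bcam. Krt19, an acidic keratin of simple epithelia, had 510.3 CPM (57 cells) in mesothelial cells and 52.8 CPM in mesenchyme, a ratio of 9.67 (7.56 to 12.5). Its level was also higher than the 194 CPM of epithelium (ratio 2.62, 2.35 to 2.93). Slc9a3r1, a scaffold that ties membrane proteins to ezrin in microvilli, had 446 CPM against 52.8, and Ezr, ezrin itself, 228 against 43.2. Sbspon, a secreted somatomedin B and thrombospondin domain protein, had 129 CPM against 5.13, a ratio of 25.2 (11.9 to 63.8). Cryab, a small heat shock protein, had 226 CPM against 16.1, and Bcam, a laminin receptor, 197 against 19.8. Prph, an intermediate filament of neurons, had 81.0 CPM, but 38.3% of its 94 UMIs came from 1 cell and only 23 cells had any.

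Of 11 keratins and apical linkers, all had enough UMIs, 6 were higher and none lower than in mesenchyme, with a median log2 ratio of 2.19. Krt7, a keratin of ducts and mesothelium, stood at 314 CPM in mesothelial cells, 68.9 in mesenchyme and 269 in epithelium. Krt8 and Krt18, the keratin pair of simple epithelia, stood at 465 and 475 CPM in mesothelial cells and reached 1322 and 1602 in epithelium. The keratin make-up thus differed from that of pancreatic epithelium, with Krt19 higher and Krt8 and Krt18 lower. Of 22 junction and polarity genes, 14 could be compared with mesenchyme, where 5 were higher (F11r, Pard6b, Cgn, Tjp1 and Cdh1) and only Cdh11 was lower. Cells that met the epithelial rule were left out of the mesenchyme, while 13 of the 62 mesothelial cells met it, so the higher Cdh1 is partly set by the rules. F11r, a tight junction adhesion molecule, had 122 CPM in mesothelial cells, 23.5 in mesenchyme and 93.5 in epithelium. Pard6b, a subunit of the apical polarity complex, had 42.2, 8.80 and 30.2 CPM. Cldn15, a claudin, was sparse, with 34 UMIs in mesothelial cells, 2 in mesenchyme and 8 in epithelium. Cdh1 (E-cadherin) had 48.3 CPM in mesothelial cells and 129 in epithelium, and 21.4% of its mesothelial UMIs came from 1 cell, but Cdh1 and Epcam had chosen the epithelium. Junction genes shared with epithelium were thus present, while Epcam, Cldn3, Cldn6, Cldn7, Crb3, Dsp, Ocln and Cdh1 were at least 2-fold lower than in epithelium.

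Matrix genes divided by kind. Of 21 interstitial matrix genes none was higher and 14 were lower than in mesenchyme, with a median log2 ratio of -1.30, though 3 of them (Col1a1, Col1a2 and Col3a1) had chosen the mesenchyme. Col1a1, a chain of fibrillar collagen, still had 1543 CPM in mesothelial cells, against 3904 in mesenchyme and 90.9 in epithelium. Lum, a collagen-binding proteoglycan, had 66.4 CPM against 583 in mesenchyme, a ratio of 0.114 (0.0888 to 0.144), and 29.9% of its mesothelial UMIs came from 1 cell. Dcn, a related proteoglycan, was level at 1093 and 1061 CPM (ratio 1.03, 0.955 to 1.11), and so was Sparc, a matricellular glycoprotein, at 2464 and 2491 CPM. Mesothelial cells therefore carried abundant matrix transcripts, of which Lum was among the lowest relative to mesenchyme. Of 18 basement membrane genes 13 could be compared, 3 were higher (Fn1, Npnt and Col18a1) and 3 lower (Lama4, Col4a1 and Col4a2). Npnt (nephronectin), an integrin ligand, had 153 CPM in mesothelial cells and 20.5 in mesenchyme, a ratio of 7.43 (4.97 to 11.5). Col18a1, the chain that yields endostatin, had 212 CPM against 54.2, and Fn1 (fibronectin) 153 against 58.6. Col4a1, the main chain of collagen IV, had 12 UMIs, 10.3 CPM, against 70.4 in mesenchyme, a ratio of 0.147 (0.0734 to 0.269).

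Many genes of fibroblast identity were lower than in collagen mesenchyme, though not than in epithelium. The 11 mesenchyme markers, which include the 3 collagen genes of the class rule, summed to 5523 CPM in mesothelial cells. Their sum was 12667 CPM in mesenchyme and 620 in epithelium. Of 11 genes linked to the transition from epithelium to mesenchyme, 9 could be compared with mesenchyme, 6 were lower (Twist2, Prrx1, Zeb2, Tcf21, Snai2 and Zeb1) and only Fn1 was higher, with a median log2 ratio of -2.35. Over all other cells 1 of 10 compared was higher and 2 were lower, with a median of -0.14. Over epithelium 2 of 4 were higher and none lower. Pdgfra, a growth factor receptor of fibroblasts, had 5 UMIs in 3 cells (4.31 CPM) against 79.9 CPM in mesenchyme, a ratio of 0.0539 (0.0172 to 0.130). Its level in leukocytes was 5.90 CPM, so the mesothelial level was no higher than in cells that should lack it. The 8 leading genes on the mesenchyme side were Sparcl1, Aspn, Islr, Osr2, Pth1r, Lum, Ebf1 and Hic1. Ebf1 and Hic1, transcription factors of fibroblast progenitors, had 2.59 and 11.2 CPM in mesothelial cells and 87.2 and 152 in mesenchyme. Pth1r, the receptor of parathyroid hormone-related protein, had 4.31 CPM against 106, and Aspn, a small proteoglycan, 6.03 against 137. Of 10 contractile genes 7 could be compared with mesenchyme, and 3 were lower (Des, Myl9 and Acta2) and none higher, while over epithelium 4 of 7 were higher, Des and Acta2 among them. Over all other cells 2 of 7 were higher (Cald1 and Tpm1) and none lower. Acta2, smooth muscle actin, had 28.4 CPM against 145 in mesenchyme and 9.81 in epithelium, and Des (desmin), an intermediate filament of muscle, 64.6 against 224 and 11.9.

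**Figure D4:**
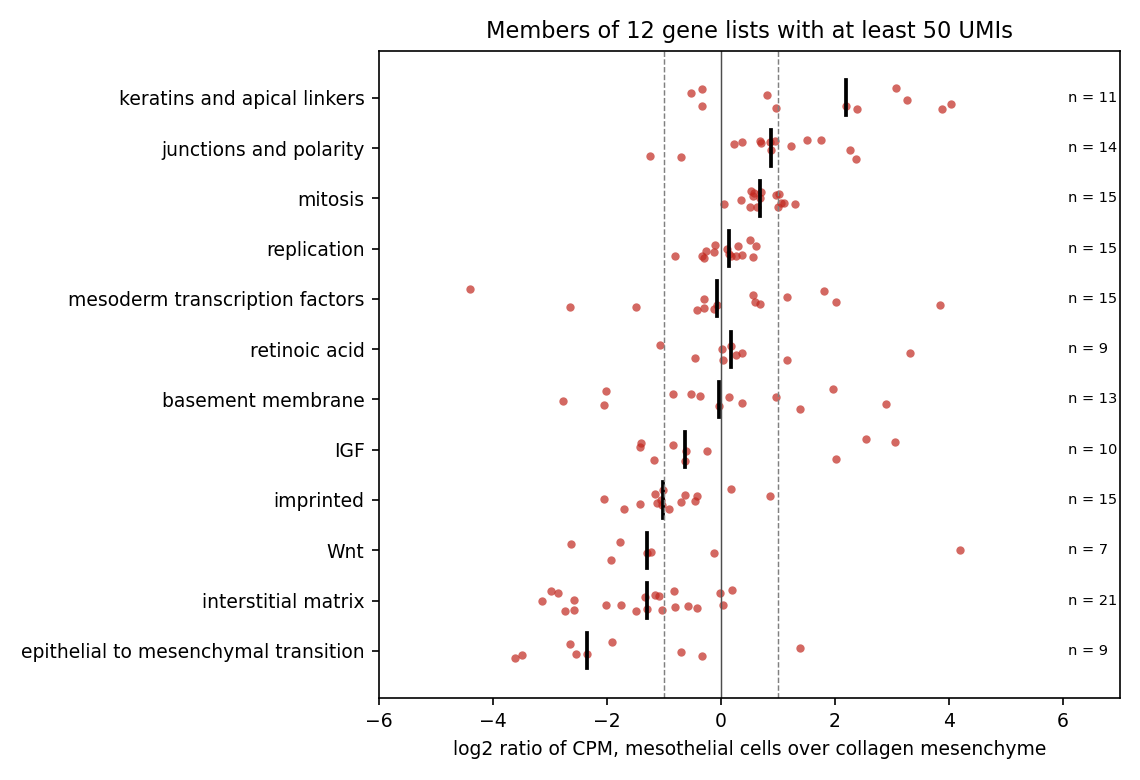
Log2 ratio of CPM, mesothelial cells over collagen mesenchyme, for each member with at least 50 UMIs of 12 gene lists (points, with a small vertical scatter; black lines are medians, dashed lines mark 2-fold). Keratins and apical linkers lie to the right (median 2.19), and interstitial matrix (-1.30) and transition genes (-2.35) to the left.

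Imprinted growth genes were lower in mesothelial cells than in mesenchyme, and they were abundant in epithelium too. Their summed level was 12019 CPM in mesothelial cells, 25893 in mesenchyme and 8252 in epithelium. Of 16 such genes 15 could be compared with mesenchyme, 8 were at least 2-fold lower and none at least 2-fold higher, with a median log2 ratio of -1.02. Cdkn1c, an inhibitor of cyclin-dependent kinases, had 1224 CPM in mesothelial cells (241 to 2871 per cell) against 5077 in mesenchyme, a ratio of 0.241 (0.228 to 0.255). Mest, an imprinted hydrolase-like gene, had 593 CPM against 1924, and Meg3, a long non-coding RNA, 3016 against 6753. Nnat (neuronatin) went the other way without reaching 2-fold, at 309 and 170.0 CPM (ratio 1.82, 1.54 to 2.16). Over epithelium the same list gave 7 higher and none lower, and over all other cells 2 higher and none lower.

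A fixed list of transcription factors of foregut and splanchnic mesoderm was measured, and it cannot show which other factors the cells held. Of 24 such factors 22 could be compared with all other cells, 13 were higher and only Tlx1 lower. Over mesenchyme 15 could be compared, and 4 were higher (Wt1, Bnc1, Isl1 and Gata6) and 3 lower (Tcf21, Hand2 and Tlx1). Wt1 had 76.2 CPM in mesenchyme, so the mesothelial level was 4.07 times higher (3.26 to 5.11). Gata6, a zinc finger factor of mesoderm and endoderm, had 172 CPM in mesothelial cells, 49.1 in mesenchyme and 64.8 in epithelium. Isl1, a LIM homeobox factor, had 87.1 CPM in mesothelial cells and 38.8 in mesenchyme. Osr1 and Barx1, factors of foregut mesoderm, had 292 and 244 CPM in mesothelial cells. These levels were above the 197 and 161 CPM of mesenchyme by less than 2-fold, and far above the 16.3 and 22.2 CPM of epithelium. Nr2f2, a nuclear receptor, was level at 176 and 191 CPM. Tcf21, a factor of visceral fibroblasts, had 18.1 CPM against 114 in mesenchyme. Tlx1, a homeobox factor needed for the spleen, had 2 UMIs against 50 in mesenchyme, a ratio of 0.0470 (0.00554 to 0.179). Of the 15 factors compared between the mesodermal classes, 8 thus lay within 2-fold and 7 past it, and the other 9 of the 24 were too sparse.

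Retinoic acid is made from retinol by retinol dehydrogenases and then by Aldh1a enzymes, and it is sensed by nuclear receptors. Of 17 genes of this pathway 12 could be compared with all other cells, and 7 were higher and 1 lower. Over mesenchyme 9 could be compared, and 2 were higher (Aldh1a2 and Dhrs3) and 1 lower (Rara, a retinoic acid receptor gene, with 18.1 CPM in mesothelial cells and 38.1 in mesenchyme). Aldh1a2 had 19.8 CPM in mesenchyme and 8.52 in epithelium, ratios of 9.93 (6.65 to 15.4) and 23.1 (16.0 to 34.3). Rdh10, the dehydrogenase of the step before, had 90.5 CPM in mesothelial cells and 70.4 in mesenchyme, a ratio of 1.29 (0.966 to 1.71). Dhrs3, a reductase that returns retinal to retinol and is itself induced by retinoic acid, had 103 CPM against 46.2, a ratio of 2.22 (1.62 to 3.06), though leukocytes held 42.3 CPM as well. The receptor gene Rarb, another gene induced by retinoic acid, had 37.9 and 31.5 CPM in the mesodermal classes and 3.10 CPM in epithelium. Crabp1, a cytoplasmic binding protein, had 99.1 CPM in mesothelial cells, but only 29 cells had any of it. Among the degrading enzymes Cyp26a1 had no UMI in mesothelial cells or in any of the classes compared, and Cyp26b1 had 1. The enzyme that makes the acid was thus the member of the pathway with the highest ratio in mesothelial cells.

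The binding proteins of insulin-like growth factors differed from gene to gene. Igfbp2 had 785 CPM in mesothelial cells (59 cells, median 729 and highest 3062 per cell), 193 in mesenchyme and 55.5 in epithelium. Igfbp5 stood at 662, 113 and 45.5 CPM in the same order, and Igfbp6 at 122, 14.7 and 10.1 CPM. Of the 10 members with enough UMIs, these 3 lay over 2-fold above mesenchyme. Igfbp3 and Igfbp4 lay below it, with 196 and 364 CPM in mesothelial cells and 514.5 and 826 in mesenchyme. The growth factors Igf1 and Igf2 had 202 and 215 CPM in mesothelial cells, 362 and 334 in mesenchyme, and 62.8 and 107 in epithelium. Igf2r, the receptor that clears IGF2, had 60.3 CPM against 161 in mesenchyme, while the signalling receptor Igf1r was close at 51.7 and 61.6 CPM. Pappa, a protease that cleaves some of these binding proteins, had 30 UMIs in mesothelial cells and 8 in mesenchyme, a ratio of 4.41 (1.98 to 11.1). The same binding proteins were thus found in both mesodermal classes in other proportions, and both ligands lay within 2-fold. Igfbp2 and Igfbp5 are neighbours on chromosome 1 (72824503 to 72852474, plus strand, and 72857932 to 72874884, minus strand, mm10).

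Secreted factors of other pathways included several that were mesothelial within this library. Rspo1, a secreted enhancer of Wnt signalling, had 134 CPM (113 to 156, 42 cells) in mesothelial cells, 7.33 in mesenchyme and 2.58 in epithelium, ratios of 18.2 (9.65 to 38.8) and 51.7 (27.4 to 110.0). Its relative Rspo3 was shared with mesenchyme, at 56.9 and 61.6 CPM. Wnt2b, a Wnt ligand, had 14 UMIs in 13 mesothelial cells and 0 in the 499 others. With 3 counts put in place of 0 this was 38.2-fold higher, which leaves out the counting error of the 14 UMIs. Other Wnt genes were lower than in mesenchyme, where 5 of 7 compared were at least 2-fold lower in mesothelial cells (Sfrp2, Dkk2, Wnt4, Sfrp1 and Wnt5a). Sfrp1, a secreted Wnt inhibitor, had 118 CPM against 449. Fgf9, a fibroblast growth factor made by mesothelium in the lung, had 89.6 CPM (73.2 to 109, 42 cells) in mesothelial cells, 6.60 in mesenchyme and 7.75 in epithelium. Bmp4, a bone morphogenetic protein, had 56.0, 10.995 and 1.29 CPM, and Tgfb3, a growth factor of the TGF-beta family, 53.4, 24.2 and 5.68 CPM. Bmp2 was sparse, with 21 UMIs against 3 in mesenchyme, a ratio of 8.23 (2.46 to 43.1). The FGF receptor gene Fgfr1 had 45.7 CPM against 93.1 in mesenchyme, and Spry1, an inhibitor induced by FGF signals, 11.2 against 29.3. Of 9 BMP and TGF-beta genes compared with mesenchyme, 2 were higher (Bmp4 and Tgfb3), 1 was lower (Tgfbi, a matrix protein) and 6 lay between. Secreted ligands stood on both sides, since Wnt4 and Wnt5a were among the genes lower than in mesenchyme, at 12.1 and 26.7 CPM in mesothelial cells and 41.0 and 66.0 in mesenchyme.

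Against epithelium the mesothelial cells differed by their mesodermal genes. Of 8484 genes compared, 705 (8.31%) were at least 2-fold higher and 681 (8.03%) at least 2-fold lower in mesothelial cells, with a median log2 ratio of 0.00. After Upk3b, Cav1, Lrrn4 and Wt1 the leading genes were Col1a1, Dcn, Igfbp2, Igfbp5, Nid2, Osr1, Rspo1 and Aldh1a2. Nid2, a basement membrane linker, had 229 CPM in mesothelial cells and 10.6 in epithelium, a ratio of 21.7 (15.5 to 30.9). The 8 leading genes on the side of epithelium were the hormone and enzyme genes Ghrl, Chgb, Ppy, Cym and Cpa1, with Rbp4, Hes1 and Tm4sf4. Single cells carried much of the epithelial level of the hormone genes: Ghrl had a median of 91.2 CPM per mesothelial cell and 119 per epithelial cell, where the highest cell reached 41322. Ppy had a median of 0 in both classes, and its ratio of 0.116 turned to 6.37 when cells with 2 Upk3b and Lrrn4 UMIs were counted as mesothelial. At that threshold Cpa1, with a ratio of 0.234, came to 0.554 and was no longer 2-fold lower. All 8 genes of the pancreatic lineage list were lower, but Epcam and Cdh1 among them had chosen the epithelium, so their difference is partly set by the rule. Pdx1, whose promoter drives the Cre, had 11 UMIs (9.48 CPM, 4.73 to 17.0) in mesothelial cells, 5.86 CPM in mesenchyme, 3.93 in leukocytes and 46.2 in epithelium. Epcam had 182 CPM against 627 in epithelium, with 104 CPM in leukocytes, and 22.3% of the mesothelial UMIs came from 1 cell. The labelled cell type, pancreatic epithelial cells, was therefore not matched by the genes of the pancreatic lineage list that had no part in the rules. Among keratin and junction genes, Krt19, Krt7, F11r and Pard6b were not lower than in epithelium, while Krt8, Krt18 and Cldn7 were. The cells nevertheless lay in the library sorted on GFP. GFP transcripts were not analysed here.

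Enzyme transcripts were found in mesothelial cells at levels close to those of mesenchyme and leukocytes, while endocrine markers differed from gene to gene. The 10 acinar markers summed to a median of 6638 CPM per mesothelial cell, 6636 per mesenchyme cell and 6728 per leukocyte. Over mesenchyme none of 9 acinar markers compared lay past 2-fold, and Cpa1, a pancreatic carboxypeptidase, had 923 CPM in mesothelial cells, 882 in mesenchyme, 976 in leukocytes and 3951 in epithelium. Ghrl, the ghrelin gene, had 103, 112, 121 and 661 CPM in the same classes. Of 9 endocrine markers compared with mesenchyme, 4 were higher (Gcg, Neurog3, Pyy and Isl1) and none lower, with a median log2 ratio of 0.96. Gcg (glucagon) had 157 CPM in mesothelial cells, 20.5 in mesenchyme and 27.5 in leukocytes, and Pyy (peptide YY) 575, 281 and 275 CPM, but 89.6% and 45.9% of their mesothelial UMIs came from 1 cell each. The part of free RNA in these levels was not tested. Endothelial markers summed to 60.3 CPM in mesothelial cells and 48.4 in mesenchyme, erythroid markers to 7.76 and 5.86, and markers of podocytes, gonad and adrenal to 25.9 and 8.80, with 2 of those 7 genes at 0.

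Mitotic genes were somewhat higher than in mesenchyme. Of 16 such genes 15 could be compared, 5 lay above 2-fold (Cenpf, Ube2c, Aurka, Cdc20 and Hmmr) and none below, with a median log2 ratio of 0.69. Against epithelium 1 of 16 lay above 2-fold, with a median of 0.38. Top2a, a DNA topoisomerase of dividing cells, had 165 CPM in mesothelial cells and 111 in mesenchyme, a ratio of 1.49 (1.20 to 1.85), with UMIs in 33 of 62 cells. Single dividing cells carried much of this, since 1 cell gave 28.4% of Cenpf UMIs and 1 gave 25.9% of Ube2c UMIs. Replication genes were level, with none of 15 past 2-fold and a median of 0.14. The depth of a mesothelial cell was higher than that of a mesenchyme cell, and its part in these ratios was not tested.

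**Figure D5:**
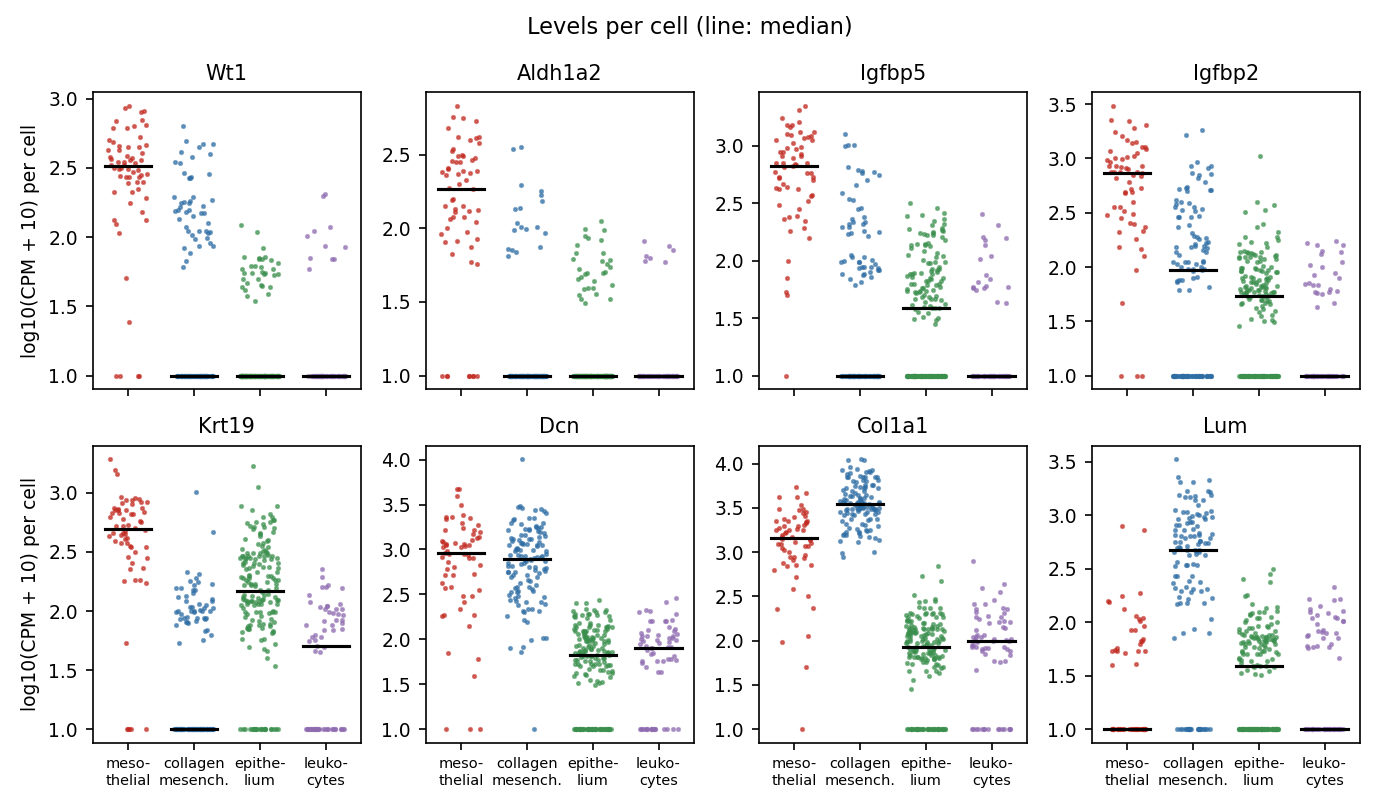
Levels of 8 genes in single cells, as log10 of CPM with 10 CPM added, for mesothelial cells, collagen mesenchyme, epithelium and leukocytes (points are cells, black lines medians). Wt1, Aldh1a2, Igfbp5 and Igfbp2 have medians of 314, 175, 659 and 729 CPM in mesothelial cells, while Lum has a median of 0 there.

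Among the 62 cells the levels of identity genes covered wide ranges, which include counting error at unequal depth. Wt1 lay between 0 and 882 CPM per cell with a median of 314, and Aldh1a2 between 0 and 672 with a median of 175. With every cell thinned to 5000 UMIs, the variance of a gene over the cells was divided by its mean, which is near 1 for counting error alone. The median of this measure over 1539 genes was 1.08. The 10 largest values belonged to Slc38a5 (56.0), Pyy (46.7), Gcg (35.3), Actb (14.3), Malat1 (11.1), Hist1h2ap (9.88), Ttr (9.49), Spp1 (7.86), Lgals1 (7.38) and mt-Atp6 (6.84), and none of them is a mesothelial marker. The top 3 rested on single cells. Of the mesothelial UMIs, 1 cell gave 88.4% of those of Slc38a5, an amino acid transporter, 1 gave 89.6% of Gcg (glucagon), 1 gave 87.8% of Neurog3, the factor of endocrine progenitors, and 1 gave 45.9% of Pyy. Spp1 and Ttr, genes of ducts and of endocrine or liver cells, had 27.6% and 18.8% of their UMIs in 1 cell. Hist1h2ap, a histone gene of replicating cells, had 29 cells at 0 and a highest count of 23. Beside these, Actb and Lgals1, genes of the cytoskeleton and of a secreted lectin, varied over all cells, with 3 to 72 and 0 to 45 UMIs per thinned cell.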

How the data were processed

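The authors deposited 1 table of UMI counts for each genotype, with genes in rows and cell barcodes in columns. Cell Ranger 2.0.0, Seurat 2.0, DESeq2 1.14.1 and the mm10 build are named, per the submitters' processing notes, without their roles. The filter that made cells of barcodes is not given in the sources used here. Of 27998 gene identifiers 27645 had a symbol, and the other 353 entered the totals unnamed.

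Within a class the counts of all cells were added up per gene and expressed as CPM. Genes were called at 2-fold among those with at least 50 UMIs over both cell sets. Intervals were exact Poisson (levels), exact conditional (ratios) and exact binomial (the share of knockout cells). Only the ratio intervals were checked on simulated counts. These counts had Poisson error alone, without the spread between cells, so the check does not cover that spread. Named genes were Ogt, Mgea5, the listed markers, the 12 highest and 8 lowest ratios per comparison (10 CPM added, at least 50 UMIs in 10 cells of the higher set, no predicted genes), members named with their list, and the 10 most variable genes. The members and the gene lists were chosen with earlier results of these data known. Ctgf and Cyr61 were looked up as Ccn2 and Ccn1 once the tables had been seen. Clustering used scanpy 1.11.5 and leidenalg 0.10.2 (2000 variable genes, 30 components, 15 neighbours, resolution 1), and doublets were marked but kept. Alternatives covered thresholds, doublets, class rules, TMM (edgeR 4.0.16) and median-of-ratios (DESeq2 1.42.0) scaling, thinning, count minimums and pseudocounts.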

Additional observations from a re-analysis of the deposited data

How the results depend on the processing

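With 1 library per genotype no result here has a replicate, and every interval covers counting error only. Of 56 named ratios recomputed under the alternatives, 797 of 800 values stayed on their side of 2-fold, a measure that large ratios seldom fail. Sizes changed more often: 24 of the 56 ratios moved beyond their counting interval at 10 or more Upk3b and Lrrn4 UMIs, 23 at 2 or more, 14 after thinning and 11 without cells that met another class rule. With cells of 2 or more Upk3b and Lrrn4 UMIs the Ppy ratio over epithelium turned round to 6.37, and Cpa1 came to 0.554. Thinned to 5000 UMIs, Mgea5 over the other cells came to 2.35. The number of mesothelial cells was 35 at 10 or more UMIs and 15 without those that met another class rule. Over all other cells, higher and lower genes numbered 422 and 712 at 2 or more UMIs, 310 and 706 after thinning, and 395 and 757 with a minimum of 100 UMIs per gene. Without cells that met another class rule 1090 were counted as higher, and with a minimum of 1 UMI 5104. Over collagen mesenchyme they numbered 86 and 195 after thinning, and 708 and 726, 124 and 197, and 2507 and 2130 with minimums of 20, 100 and 1. Over epithelium they numbered 210 and 280 after thinning, and 1251 and 1110, 399 and 397, and 4509 and 1495 with those minimums, and 432 were lower at 2 or more UMIs. Thinning and stricter minimums leave fewer genes to compare. For these counts a gene with no UMI in 1 set was put at 3 counts there. With a minimum of 1 UMI, a gene without any mesothelial UMI can therefore count as higher. The counts at that minimum are thus not numbers of genes seen to be higher. The same step can enter the 1090, where fewer mesothelial cells were summed. The cause of the other changes was not tested. With only the 55 cells inside the main cluster (added after seeing the data) higher and lower genes numbered 797 and 1521 over the other cells, 252 and 375 over mesenchyme and 764 and 879 over epithelium. TMM and median-of-ratios scaling left all 56 ratios on their side of 2-fold. With a pseudocount of 1 or 50 CPM in place of 10, 8 and 8 of the 12 leading genes over the other cells, 8 and 9 over mesenchyme and 6 and 8 over epithelium were kept. No paired analysis was possible because the replicate numbers mark sequencing runs of 1 library that the tables do not separate. Depth limits low genes: a gene without a UMI in mesothelial cells can lie at up to 3 counts, or 2.59 CPM.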

Other observations

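Further gene groups were measured in the mesothelial cells and are given as counts. Of all genes, 6.11% were at least 2-fold higher and 10.6% lower over all other cells, 4.2% and 5.99% over collagen mesenchyme, and 8.31% and 8.03% over epithelium. Of 12 YAP target and pathway genes 10 could be compared, and over collagen mesenchyme Ajuba and Amotl2 were over 2-fold higher and Axl lower, with a median log2 ratio of 0.34. Amotl2, an angiomotin relative, had 96.5 CPM in mesothelial cells and 40.3 in mesenchyme. Ccn2 had 3 UMIs and Ccn1, the other secreted target, 203 CPM against 140.0 in mesenchyme. Of 19 complement and chemokine genes 13 could be compared with all other cells, with 5 higher and 7 lower, and Cxcl12, a chemokine of stroma, had 80.2 CPM in mesothelial cells against 429.5 in mesenchyme. Cfb, a complement protease, had no UMI in mesothelial cells and 61 in the others. Of 12 genes of coagulation and fibrinolysis 8 could be compared with all other cells. Plat, the tissue plasminogen activator, had 88.8 CPM in mesothelial cells, 77.7 in mesenchyme and 6.97 in epithelium, while Serpine2, a protease inhibitor, had 34.5 CPM against 181 in mesenchyme. None of 8 Notch genes compared with the other cells was higher and 4 were lower. Hes1, a Notch target, had 108 CPM in mesothelial cells, 265 in mesenchyme and 489.7 in epithelium. Only 3 of 10 hedgehog genes could be compared with the other cells, and none lay past 2-fold. Of 16 immediate early genes 7 of 15 compared were lower than in all other cells (median log2 ratio -0.92), 2 of 13 than in mesenchyme (0.00) and 5 of 14 than in epithelium (-0.67), and none was higher. Has2, a hyaluronan synthase, had 1 UMI in mesothelial cells and 17 in mesenchyme, a ratio of 0.0692 (0.00166 to 0.441).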
